A study of Mus musculus with 6 samples.

Results

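The mRNA of 10 genes was examined in aortas from Mymsl knockout mice (KO) and from wild-type mice (WT). They encode phospholipase C and G protein subunits of the Gq and G12 types. Mymsl is a gene for a long noncoding RNA. The genes were taken by symbol from a table of 53735 rows, and the set was chosen by the measured counts of Plcb1, which were lower in KO than in WT in these same libraries. The KO against WT differences of these genes are therefore given as a description. Where the text says how many of them passed a test across all genes, the share of all genes stands beside it and nothing is read from it. The set holds the alpha subunits Gnaq and Gna11 of the Gq type, and Gna12 and Gna13 of the G12 type. It also holds the beta-type phospholipases Plcb1, Plcb2, Plcb3 and Plcb4, and the phospholipases Plcg1 and Plce1. Each genotype had 3 libraries, made with a stranded poly(A) kit. Per the labels, the RNA came from purified smooth muscle cells of the medial layer of the aorta. The labels call the groups Mymsl KO and Mymsl WT, and give no age, sex, strain, knockout design or treatment. The series text speaks of 3 pairs of mice, without saying what a pair shares or whether a library came from a single mouse, so p-values below measure the spread between libraries, which may be technical.

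Gq-coupled receptors on vascular smooth muscle bind vasoconstrictors such as angiotensin II, endothelin, noradrenaline and thromboxane. Their alpha subunits, encoded by Gnaq and Gna11, switch on beta-type phospholipase C, which splits a membrane phosphoinositide into inositol trisphosphate and diacylglycerol. Inositol trisphosphate opens calcium stores and diacylglycerol activates protein kinase C, and both lead to contraction. The subunits encoded by Gna12 and Gna13 act instead through guanine nucleotide exchange factors on the small GTPase RhoA, which holds the contraction by keeping myosin phosphatase low. Plcg1 is switched on by receptor tyrosine kinases and Plce1 by small GTPases such as Ras and Rap.

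Total counts lay between 20048216 and 23243129 in KO libraries and between 23506674 and 25521123 in WT libraries (difference of means, exact two-sided permutation p = 0.1, the smallest that 3 against 3 libraries allow). Mitochondrially encoded genes held 18.9%, 10% and 13% of counts in KO replicates 1, 2 and 3, against 7.84%, 9.02% and 5.66% in WT replicates 1, 2 and 3 (14% ± 4.53 and 7.51% ± 1.7, SD, n = 3 each, exact p = 0.1). No row carries the name Mymsl. The clone-named row RP23-57D10.3, the only one of 14145 tested genes to pass edgeR's quasi-likelihood test, had 0 counts in every KO library, against 314, 378 and 273 in WT replicates 1, 2 and 3. The 8 smooth muscle markers checked, such as Acta2 and Myh11, summed to between 40200 and 54200 CPM (counts scaled to the library size, here after normalization by trimmed means) in KO libraries and between 48800 and 52200 CPM in WT libraries, so markers of the labelled cell type were abundant in each. Of these 8 smooth muscle markers, 7 had a log2 fold change, KO over WT, below 0, with a median of −0.12. Sums for markers of other cells varied between libraries too. The 9 heart muscle markers, of which 7 passed the filter on low counts, summed to 141, 97.7 and 82.2 CPM in KO replicates 1, 2 and 3, against 104, 72.2 and 105 CPM in WT replicates 1, 2 and 3. These sums overlapped, and 6 of the 7 that passed had a log2 fold change, KO over WT, above 0, with a median of 0.76. The 6 pericyte markers summed to 2030, 3590 and 5180 CPM in KO replicates 1, 2 and 3, against 6840, 6770 and 6250 CPM in WT replicates 1, 2 and 3, every KO library below every WT library. Most of that difference was 1 gene, Rgs5, a regulator of G protein signalling, with 335, 1670 and 3490 CPM in KO, against 4860, 4730 and 4200 CPM in WT. The other 5 summed to between 1690 and 1930 CPM in KO libraries and between 1980 and 2050 CPM in WT libraries. In such bulk samples, fewer cells of a type and less RNA per cell cannot be told apart.

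All 10 genes are protein-coding in GENCODE M21, on the mouse build GRCm38. Plcb1 spans positions 134786067 to 135475258 on the plus strand of chromosome 2 (689.2 kb), the longest span of the set, and Plcb4 follows 183.8 kb downstream on the same strand, at 135659011 to 136014593. Plcb2 (118707517 to 118728438, minus strand) and Plcg1 (160731300 to 160775760, plus strand) are on chromosome 2 as well. Chromosome 19 carries Gnaq (16132831 to 16387463, plus strand), Plcb3 (6952325 to 6976470, minus strand) and Plce1 (38481109 to 38785030, plus strand). Gna11 lies on chromosome 10 (81528724 to 81545190, minus strand), Gna12 on chromosome 5 (140758408 to 140830431, minus strand) and Gna13 on chromosome 11 (109362831 to 109401369, plus strand). The unions of their annotated exons run from 3.416 kb for Gna12 to 15.998 kb for Plce1. Exons of a gene on the other strand, Amz1, cover 13.35% of the exon bases of Gna12, and exons of other genes, Zhx3 among them, cover 6.68% of those of Plcg1. Whether the counting used strand is not known here, so counts from these stretches are uncertain. Amz1 had between 2 and 12 counts per library, far below Gna12, while Zhx3 had between 1428 and 2523 and a log2 fold change, KO over WT, of −0.24 ± 0.099 (SE). Of all 50-base windows in the longest transcript, at most 10.9% (Gna12) occurred in transcripts of another gene, and 0 occurred for Gna11, Plcb2, Plcb3 and Plce1. Gna11, with 0 such windows, thus shared none with Gnaq.

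The promoter stretches of Plcb1 and Gna13, the members whose KO and WT libraries did not overlap, are shown with that of Gna12, whose libraries overlapped. They come from RefSeq (GRCm38.p6), are written 5′ to 3′ on the gene's strand, and end at the RefSeq start site or earlier, where an annotated exon of the gene begins. Capitals mark the GC box, spelled GGGCGG. They also mark the CCAAT box, which is spelled as it is named, and the E-box, here with the letters CACGTG. Matches on either strand are marked. The stretch of Plcb1 is chr2:134785914-134786066, that of Gna13 chr11:109362544-109362793 and that of Gna12 chr5:140830432-140830681 (minus strand).
Plcb1: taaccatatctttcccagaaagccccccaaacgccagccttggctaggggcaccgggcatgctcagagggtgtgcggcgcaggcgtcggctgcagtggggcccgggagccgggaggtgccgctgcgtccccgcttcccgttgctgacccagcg
Gna13: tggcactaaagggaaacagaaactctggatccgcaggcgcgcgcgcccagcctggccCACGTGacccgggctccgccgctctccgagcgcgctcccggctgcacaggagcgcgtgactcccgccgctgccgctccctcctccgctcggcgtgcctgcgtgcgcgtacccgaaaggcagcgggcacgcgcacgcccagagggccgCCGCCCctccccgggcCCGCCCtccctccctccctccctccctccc
Gna12: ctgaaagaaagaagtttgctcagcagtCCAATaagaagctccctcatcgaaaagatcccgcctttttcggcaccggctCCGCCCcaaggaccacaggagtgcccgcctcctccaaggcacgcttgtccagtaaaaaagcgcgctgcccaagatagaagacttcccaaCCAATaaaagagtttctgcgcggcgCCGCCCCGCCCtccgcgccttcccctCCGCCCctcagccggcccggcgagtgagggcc
The Plcb1 stretch of 153 bases holds 0 matches, the Gna13 stretch holds 2 GC boxes and 1 E-box, and the Gna12 stretch holds 4 GC boxes, of which a pair overlaps by a base, and 2 CCAAT boxes. RefSeq gives 11 windows of 300 bases for the 10 genes, with Plcb4 at 2 starts. A GC box stood in 9 of these 11, against 35.7% of all 32851 windows. The window of Plcb1, which runs past the printed stretch, holds 1 GC box, and those of Gna12 and the first start of Plcb4 hold 7 each. CArG boxes, the binding element of serum response factor, were in 0 of 11 windows (1.63% of all), TATA boxes (TATAAA) in 0 of 11 (13.6%), TEAD sites (CATTCC) in 3 of 11 (14.7%), CCAAT boxes in 3 of 11 (37.4%) and E-boxes in 1 of 11 (7.15%). Both strands were searched, and these shares describe letters in a window, not binding. GC content was 69.7% for Plcb1 and 76.7% for Gna13, with 84% at the first and 44.3% at the second start of Plcb4, and 41% for Plce1. The median of all windows was 52.7%.

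Plcb4 was the most abundant member per length. Its mean level was 61 ± 5.34 CPM per kilobase of exon (SD, n = 6 libraries), and Gna12 and Gna11 followed with 38.3 ± 2.12 and 35.7 ± 1.51. Next in level per kilobase came Plcb3 (14.4 ± 0.901), Gnaq (12.1 ± 1.38), Plcg1 (9.18 ± 0.842) and Gna13 (8.94 ± 0.944). Plcb1, at 4.86 ± 0.564 CPM per kilobase, and Plce1, at 3.03 ± 0.196, stood low in the order, and Plcb2 was last with 0.0201 ± 0.0116. The choice of genes rested on the KO against WT difference of Plcb1, whose counts also enter here, and not on levels between genes. Neighbours in the order were compared within each library by an exact two-sided sign-flip permutation test over 6 libraries. The order was set on these same libraries, so the p-values describe how steady it was across them and are no independent test. No p of this test is below 0.0312. In 8 of 9 neighbouring pairs the order was the same in 6 of 6 libraries, each at that smallest p (adjusted over the 9 pairs, 0.0352). The narrowest of these was Gna12 over Gna11, a mean log2 ratio of 0.10 with a range of 0.02 to 0.16. Plcg1 and Gna13 did not differ beyond their spread, with a mean log2 ratio of 0.04, a range of −0.29 to 0.23 and an exact permutation p of 0.594. With the longest annotated transcript as the length, Gna11 stood above Gna12 (log2 ratio 0.16) and Plcg1 above Gnaq (0.10, exact permutation p = 0.156), so these orders depend on the gene model. Plcb4 stayed first under either length, and Plcb1, Plce1 and Plcb2 stayed last.

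**Figure D1:**
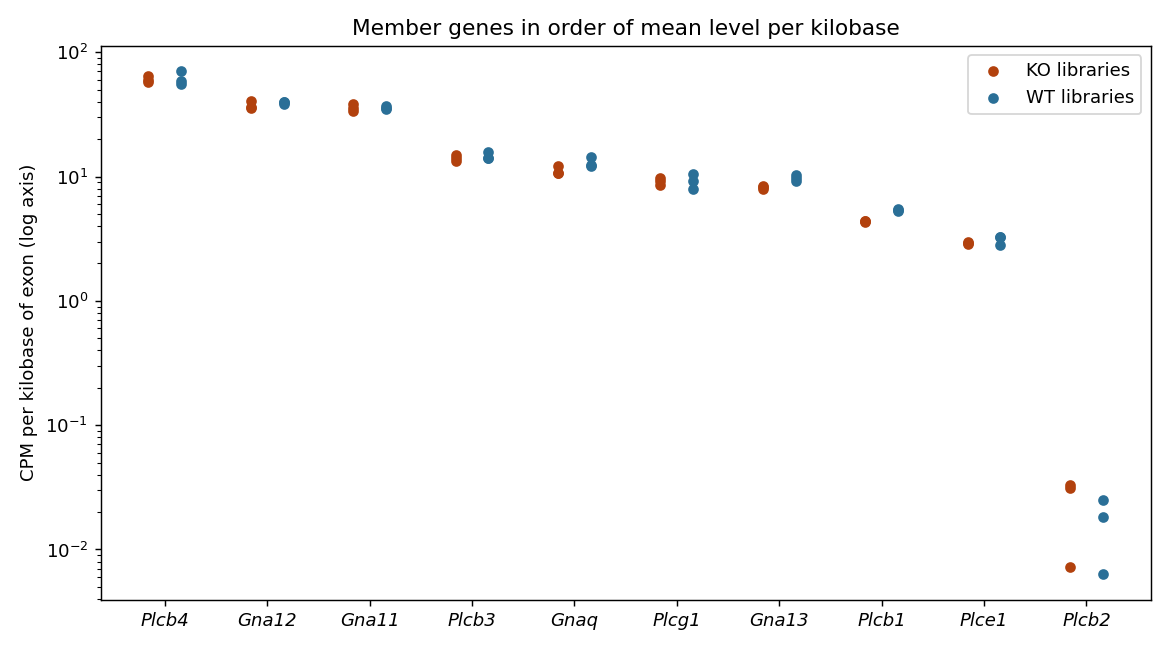
Level of each member in CPM per kilobase of exon on a log axis, in order of the mean over 6 libraries, with KO libraries to the left of WT libraries for each gene. Plcb4 averages 61 and Plcb1 4.86 CPM per kilobase, and Plcb2, at 0.0201, is the lowest.

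Within the families, the more abundant gene was the same in every library. Plcb4 made up 75.5%, 77.5% and 76.4% of the beta-type phospholipase level per kilobase in KO replicates 1, 2 and 3, against 75.2%, 78.4% and 72.3% in WT replicates 1, 2 and 3. Plcb1 made up 5.54% ± 0.294 of it in KO and 6.59% ± 0.662 in WT, and Plcb3 17.9% ± 0.851 in KO and 18.1% ± 2.44 in WT (SD, n = 3 each). Of the summed level of Gnaq and Gna11, Gna11 held 76.3% ± 1.89 in KO and 73.3% ± 1.92 in WT. Of that of Gna12 and Gna13, Gna12 held 82% ± 0.968 in KO and 80.1% ± 1.01 in WT. The KO and WT libraries overlapped in the shares of Gna11, Gna12, Plcb3 and Plcb4. For Plcb1 the shares were 5.55%, 5.23% and 5.82% in KO replicates 1, 2 and 3, against 6.92%, 5.83% and 7.03% in WT, where WT replicate 2, the library with the most Plcb4, lay next to the highest KO value.

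Plcb1, a phospholipase that Gq subunits activate directly, had the lowest log2 fold change, KO over WT, of the 9 tested members. It had 940, 1003 and 1123 counts in KO replicates 1, 2 and 3, against 1451, 1466 and 1462 in WT replicates 1, 2 and 3. As normalized levels these were 48.5, 47.9 and 48.6 CPM in KO, against 60.2, 58.2 and 60.5 CPM in WT. All 3 KO libraries lay below all 3 WT libraries. The means were 48.3 ± 0.357 CPM in KO and 59.7 ± 1.24 CPM in WT (SD, n = 3 each). The log2 fold change was −0.30 ± 0.05 (SE), and the KO mean was 81% of the WT mean. The coefficient of variation between KO libraries, 0.739%, was below the 3.13% that counting alone gives at this depth, so the SD of these 3 libraries understates the error of a single value. With any single library left out, the log2 fold change lay between −0.322 and −0.29. Without KO replicate 1, which had the highest mitochondrial share and the highest heart muscle sum, it was −0.307, and without both KO replicate 1 and WT replicate 3 it was −0.296. The part of the lower pericyte markers in KO was not tested. Of all tested genes, 7.34% had a lower log2 fold change than Plcb1.

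Plcb4, the predominant beta-type phospholipase here, had 532, 573 and 515 CPM in KO replicates 1, 2 and 3, against 528, 632 and 503 CPM in WT replicates 1, 2 and 3. The groups overlapped throughout, with means of 540 ± 29.9 CPM in KO and 554 ± 68.5 CPM in WT and a log2 fold change of −0.04 ± 0.102 (SE). Without WT replicate 2, the highest library, it was 0.066. Plcb3, the next beta type in level per kilobase, had 103, 98.7 and 92.6 CPM in KO, against 97.5, 98.4 and 111 CPM in WT, also overlapping (log2 −0.06 ± 0.075). Plcb2, best known from blood cells and taste cells, had 4, 1 and 5 counts in KO replicates 1, 2 and 3, against 1, 3 and 4 counts in WT. At that depth no difference could be seen, and Plcb2 was the 1 member that did not reach the count minimum of the test. The 6 macrophage and blood cell markers summed to 64, 28 and 76.5 CPM in KO, against 56.2, 31.1 and 49.2 CPM in WT. Their part in the Plcb2 counts was not tested.

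**Figure D2:**
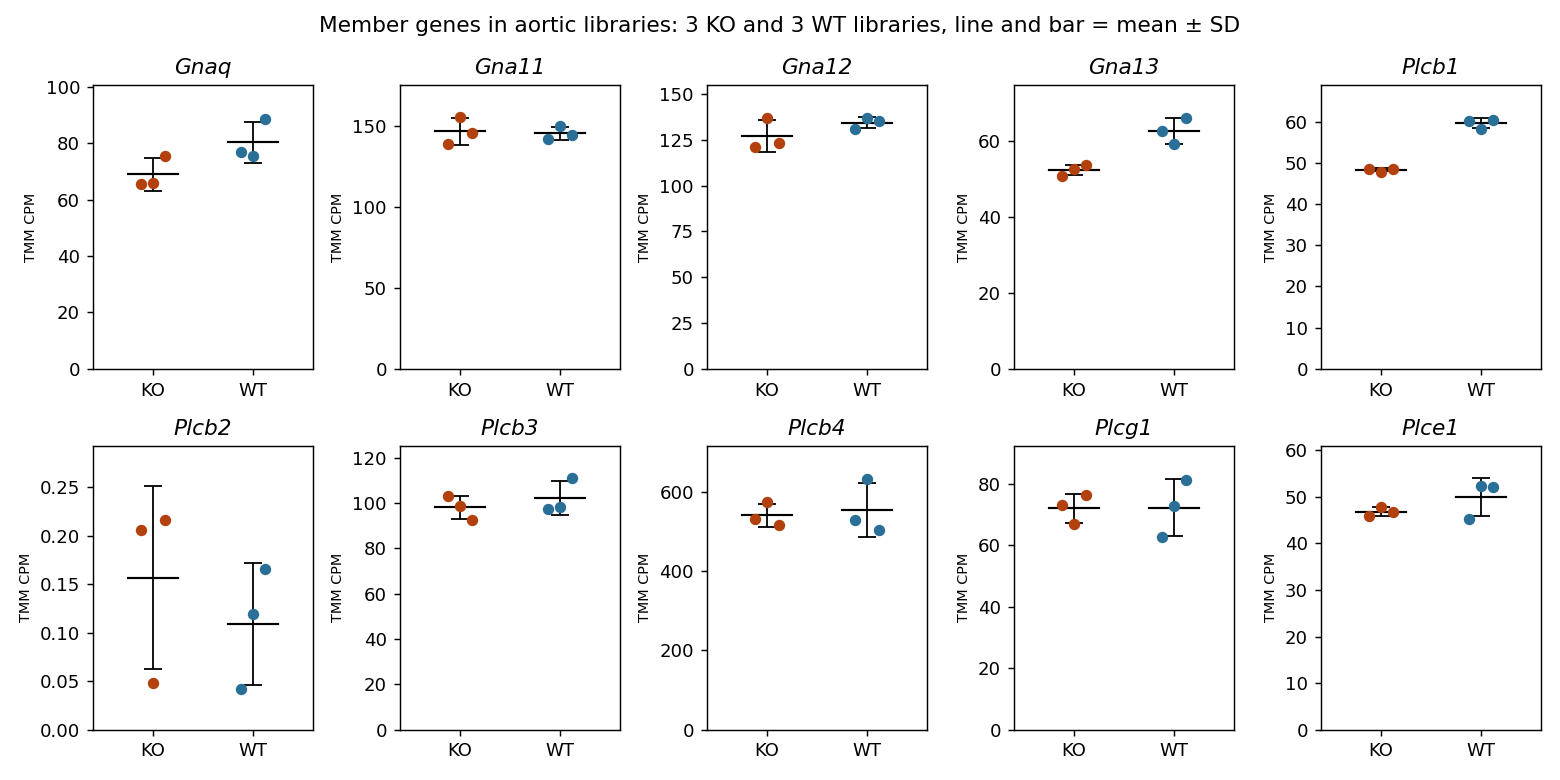
Normalized level (TMM CPM, linear axis from 0) of the 10 members in 3 KO libraries (left) and 3 WT libraries (right), with mean and SD. The groups are apart for Plcb1 (47.9 to 48.6 CPM in KO, 58.2 to 60.5 CPM in WT) and Gna13, and overlap or touch for the others.

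Among the alpha subunits, Gna13 was nearest to Plcb1. It had 50.7, 52.5 and 53.5 CPM in KO replicates 1, 2 and 3, against 62.6, 59.1 and 65.8 CPM in WT replicates 1, 2 and 3. All KO libraries lay below all WT libraries, with means of 52.2 ± 1.43 CPM in KO and 62.5 ± 3.32 CPM in WT and a log2 fold change of −0.26 ± 0.06 (SE; 83.6% of WT). Gna12, which encodes the closest relative of that subunit, had 121, 137 and 123 CPM in KO, against 131, 137 and 135 CPM in WT. The 2 groups overlapped (log2 −0.08 ± 0.069). Leaving out single libraries moved Gna13 between −0.297 and −0.216, and it was −0.199 without KO replicate 1 and WT replicate 3 together.

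Gnaq had 65.4, 65.8 and 75.6 CPM in KO replicates 1, 2 and 3, against 77, 75.4 and 88.6 CPM in WT replicates 1, 2 and 3. KO replicate 3 lay just above WT replicate 2, so the groups overlapped by a narrow margin, and the log2 fold change was −0.22 ± 0.088 (SE). It depended on the libraries more than those of Plcb1 and Gna13: it was −0.293 without KO replicate 3, −0.14 without WT replicate 3, and −0.108 without both KO replicate 1 and WT replicate 3. Gna11, whose protein acts on the same phospholipases, had 139, 156 and 146 CPM in KO, against 142, 150 and 145 CPM in WT. Its groups overlapped fully, with a log2 fold change of 0.01 ± 0.066 (SE).

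The phospholipases outside the beta type showed overlapping groups. Plcg1 had 73, 66.8 and 76.3 CPM in KO replicates 1, 2 and 3, against 62.8, 72.7 and 81.4 CPM in WT replicates 1, 2 and 3, with a log2 fold change of −0.005 (SE 0.1). Plce1 had 45.8, 47.9 and 46.8 CPM in KO, against 45.3, 52.4 and 52.2 CPM in WT, with −0.09 ± 0.072 (SE). WT replicate 1 was the lowest Plce1 library of all, and the other 2 WT libraries lay above every KO library.

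Of the 10 members, 9 passed the filter on low counts, each with at least 889 counts in every library, so none of these passed the filter through 1 genotype alone. Of the 9, 8 had a log2 fold change below 0, where 47.5% of all tested genes did, and the median was −0.08, where that of all tested genes was 0.012. KO libraries lay entirely below WT libraries for 2 of the 9, Plcb1 and Gna13, and for 11.3% of all genes. In edgeR 0 of the 9 passed (0.00707% of genes passed, 1 of 14145), and 3 of the 9, all lower in KO, had an unadjusted p under 0.05, where 7.76% of genes were lower in KO at such a p. In DESeq2 1 of the 9 passed, Plcb1, which was lower in KO, where 2.22% of genes with an adjusted p passed in either direction and 1.49% as lower in KO. As the same contrast chose the set, nothing is read from these counts. With single libraries left out, the number of members below 0 was between 6 and 9, since Gna11, Plcb3, Plcb4 and Plcg1 lay close enough to 0 to change sign.

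**Figure D3:**
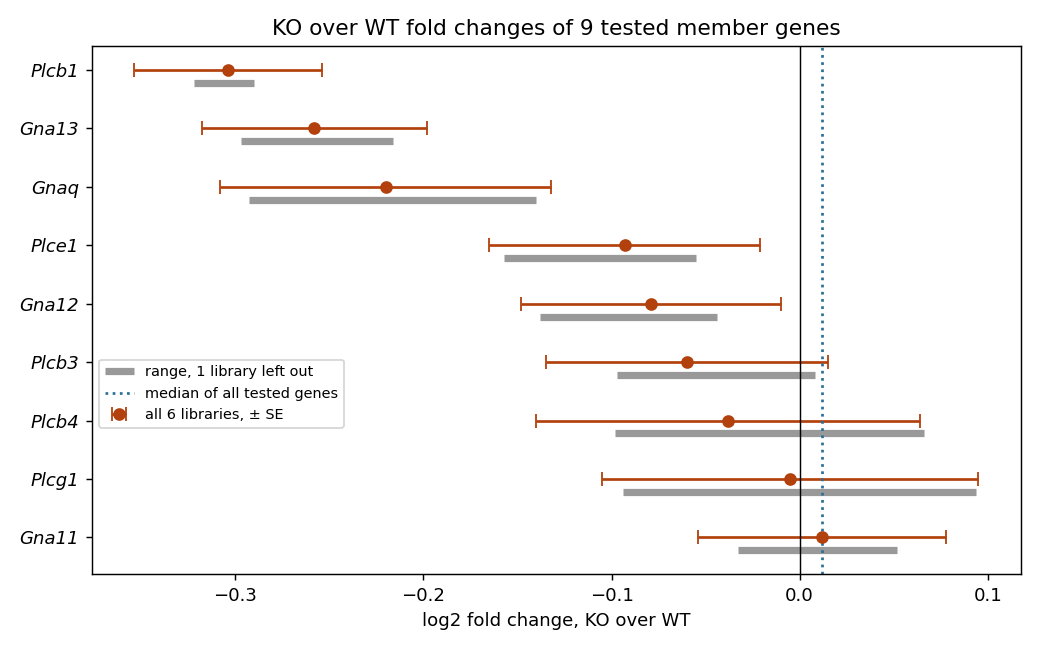
Log2 fold change (KO over WT) of the 9 tested members with standard errors, and grey bars for the range when 1 library is left out. Plcb1 (−0.30) and Gna13 (−0.26) lie farthest below 0 with narrow ranges, while the ranges of Plcb3, Plcb4, Plcg1 and Gna11 cross 0.

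Fold changes across the transcriptome moved with exon length, here the union of all annotated exons of a gene. By this measure Plcb1 has 11.115 kb of exon, while its longest annotated transcript has 7.202 kb. Of 1281 tested genes with at least 10 kb of exon, 68.3% had a log2 fold change below 0, the median was −0.08, and 25.4% had every KO library below every WT library. Of 1478 genes with under 2 kb of exon, 30.6% were below 0, the median was 0.08, and 3.11% had every KO library below every WT library. The medians kept these signs without any single library, between 0.06 and 0.11 for the short genes and between −0.10 and −0.06 for the long ones. By gene span, 22% of the 355 tested genes of at least 300 kb had every KO library below every WT library, against 3.91% of the 2916 of under 10 kb. In their own classes of exon length, 10.9% of genes had a lower log2 fold change than Plcb1, 9.53% than Gna13 and 12.3% than Gnaq. For Plce1, with 15.998 kb of exon, that share was 47.4%, and for Plcb4, with 8.97 kb of exon and a span of 355.6 kb, it was 54.3%. KO libraries also had a higher mitochondrial share than WT libraries, and its relation to the length trend was not tested. The part of length or of the mitochondrial share in the values of Plcb1, Gna13 and Gnaq was not tested.

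**Figure D4:**
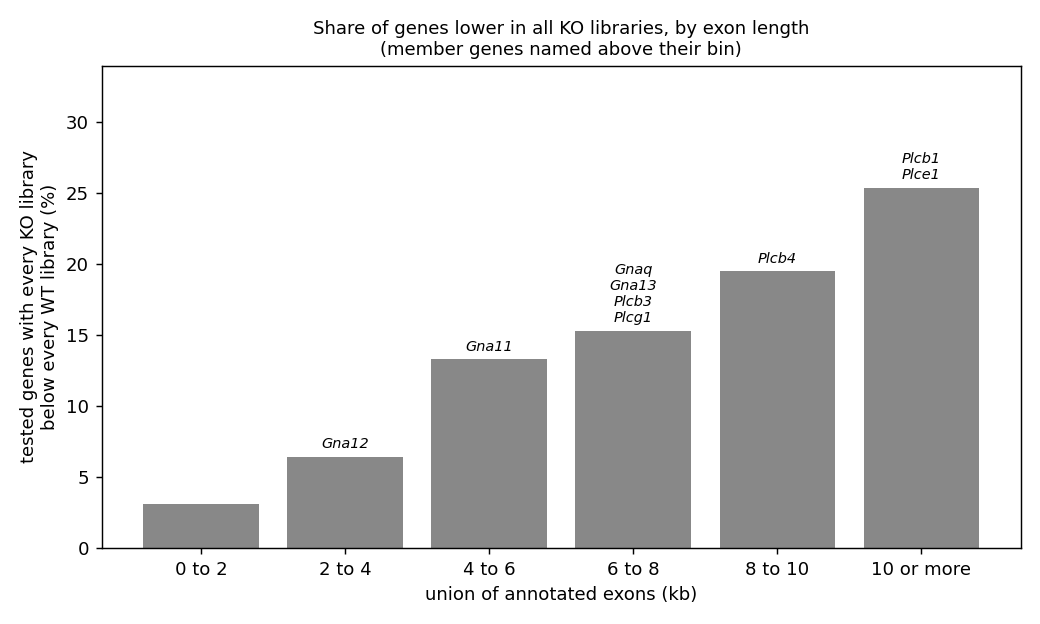
Share of tested genes whose KO libraries all lie below all WT libraries (bars, percent), by the length of their annotated exons in kilobases, with the members named above their class. The share is 3.11% under 2 kb and 25.4% at 10 kb or more, the class of Plcb1 and Plce1.

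The genes whose profile over the 6 libraries was nearest to that of Plcb1 were Tmf1, Csgalnact2, Tnpo1, Alg10b and Ngly1. Likeness was the root mean square difference of log2 levels, each gene set to its WT mean, over 8609 genes with a symbol in the annotation and a mean of at least 10 CPM. It was 0.0152 for Tmf1, which had 36.5, 37 and 37.1 CPM in KO replicates 1, 2 and 3, against 45.2, 44.1 and 46.2 CPM in WT. For the other 4 it was between 0.0188 and 0.0272, with log2 fold changes between −0.33 and −0.29. In all, 386 of the 8609 genes were within 0.1 of Plcb1, and the median was 0.231. Of the members, Gna13 was nearest with 0.0498, followed by Gnaq with 0.108, and the others lay between 0.172 and 0.247. Since Plcb1 was chosen for being lower in KO, genes near it are by construction lower in KO too.

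In the pathway around these genes, 163 further genes in 9 lists were examined, of which 144 were tested. In edgeR's quasi-likelihood test, 0 of the 144 passed over all genes, where 0.00707% of all genes did. Before adjustment, 9 of the 144 were higher in KO at p under 0.05, where 6.8% of all genes were, and 21 were lower, where 7.76% of all genes were. DESeq2 gave an adjusted p for 106 of the 144. It called 3 as higher (Arhgef1, Dgka and Dgkz) and 3 as lower (F2r, Gng12 and Pip5k1b). Of all 9208 genes with an adjusted p, 67 passed as higher and 137 as lower, 2.22% in either direction. Of the 144, 56.2% had a log2 fold change below 0, and the median was −0.026. For the 2 genes of smallest p in each list, edgeR's adjusted p lay between 0.239 and 0.342.

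Of 25 tested Gq-coupled receptors, 17 were below 0, with a median log2 fold change of −0.26, which was −0.155 without KO replicate 1. The pericyte markers had 6 of 6 below 0 and a median of −0.29, and their part in the receptor values was not tested. F2r, the thrombin receptor, measured 72 ± 2.94 CPM in KO and 89.3 ± 4.44 CPM in WT (log2 −0.31 ± 0.062, adjusted p = 0.239, DESeq2 adjusted p = 0.0246). Ednrb, an endothelin receptor, measured 2.03 ± 0.603 CPM in KO and 6.63 ± 3.99 CPM in WT (log2 −1.70 ± 0.469, adjusted p = 0.264). Every KO library lay below every WT library for both receptors, as was so for 11.3% of all tested genes. Of 18 other G protein subunits, 11 were below 0, with a median of −0.04, which was −0.005 without KO replicate 1. Gng12, a gamma subunit, measured 213 ± 23.8 CPM in KO and 272 ± 6.08 CPM in WT (log2 −0.35, adjusted p = 0.264, DESeq2 adjusted p = 0.0316), and the inhibitory alpha subunit Gnai3 had −0.17 (adjusted p = 0.318).

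Among 8 other tested phospholipase C and related genes, 3 were below 0 and 5 above, with a median of 0.16, which was −0.05 with no filter on low counts, 0.067 without KO replicate 1 and 0.249 without KO replicate 3. Plcg2, the relative of Plcg1 used by blood cells, measured 8.82 ± 1.95 CPM in KO and 5.07 ± 1.17 CPM in WT (log2 0.80 ± 0.218, adjusted p = 0.264). Of the macrophage and blood cell markers, 5 of 5 tested were above 0, with a median of 0.14, and their part in the Plcg2 values was not tested. Plcl1, a phospholipase-like protein without catalytic activity, had −0.18 (adjusted p = 0.289). Of 18 genes of phosphoinositide supply 11 were below 0, with a median of −0.02, which was −0.012 without KO replicate 2 or without WT replicate 3. Pip5k1b, a kinase that makes the substrate of phospholipase C, measured 12.6 ± 2.98 CPM in KO and 21.1 ± 5.36 CPM in WT (log2 −0.74, adjusted p = 0.273, DESeq2 adjusted p = 0.0477), and the lipid kinase Pi4ka had −0.14 (adjusted p = 0.342).

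Downstream of phospholipase C, 8 of 12 genes for inositol trisphosphate receptors and turnover were below 0, with a median of −0.08. It was −0.131 without KO replicate 1, −0.042 without KO replicate 3, −0.152 without WT replicate 2 and −0.018 without WT replicate 3. Impa1, which recycles inositol, had −0.18 (adjusted p = 0.275), and Prkg1, the cyclic GMP-dependent kinase that restrains calcium release, had −0.42 (adjusted p = 0.342). Of 24 diacylglycerol effectors and kinases 11 were below 0, with a median of 0.01 that lay between −0.038 and 0.048 over the alternatives and below 0 without KO replicate 3 or without WT replicate 3. The diacylglycerol kinases, which remove that messenger, included the 2 of smallest p. Dgka measured 37.6 ± 2.19 CPM in KO and 28.9 ± 2.18 CPM in WT (log2 0.38 ± 0.082, adjusted p = 0.239, DESeq2 adjusted p = 0.0371). Dgkz measured 97.7 ± 6.75 CPM in KO and 74.4 ± 9.72 CPM in WT (log2 0.39 ± 0.101, adjusted p = 0.264, DESeq2 adjusted p = 0.0457). For both kinases, every KO library lay above every WT library, as was so for 10.5% of all tested genes. Next by p came 2 more diacylglycerol kinases, lower in KO: Dgkb (log2 −0.42, adjusted p = 0.277) and Dgkg (−0.26, adjusted p = 0.282). For these, every KO library lay below every WT library, as was so for 11.3% of all tested genes.

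Among the effectors of Gna12 and Gna13, 9 of 12 genes were below 0, with a median of −0.12, yet the exchange factors of smallest p were higher in level in KO. Arhgef1, a RhoA exchange factor that these subunits activate, measured 139 ± 19.4 CPM in KO and 100 ± 5.49 CPM in WT (log2 0.48 ± 0.103, adjusted p = 0.239, DESeq2 adjusted p = 0.00903). Arhgef25, a RhoA exchange factor activated by Gq subunits, measured 183 ± 25.5 CPM in KO and 149 ± 7.56 CPM in WT (log2 0.30, adjusted p = 0.279). Of 15 regulators of G proteins and receptors 7 were below 0 (median 0.02, between −0.035 and 0.058 over the alternatives, below 0 without KO replicate 1, KO replicate 2 or WT replicate 2). By p they were led by Arrb2 (0.34, adjusted p = 0.3) and Grk5 (−0.61, adjusted p = 0.342). Rgs5, given above with the pericyte markers, is in this list and had its largest fold change, −1.33 ± 0.665 (SE, adjusted p = 0.386). Of 12 Ras and Rap genes that partner Plce1 4 were below 0 (median 0.12, and 0.05 without KO replicate 3), led by Rap1a (−0.25, adjusted p = 0.277) and Nras (0.22, adjusted p = 0.289).

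**Figure D5:**
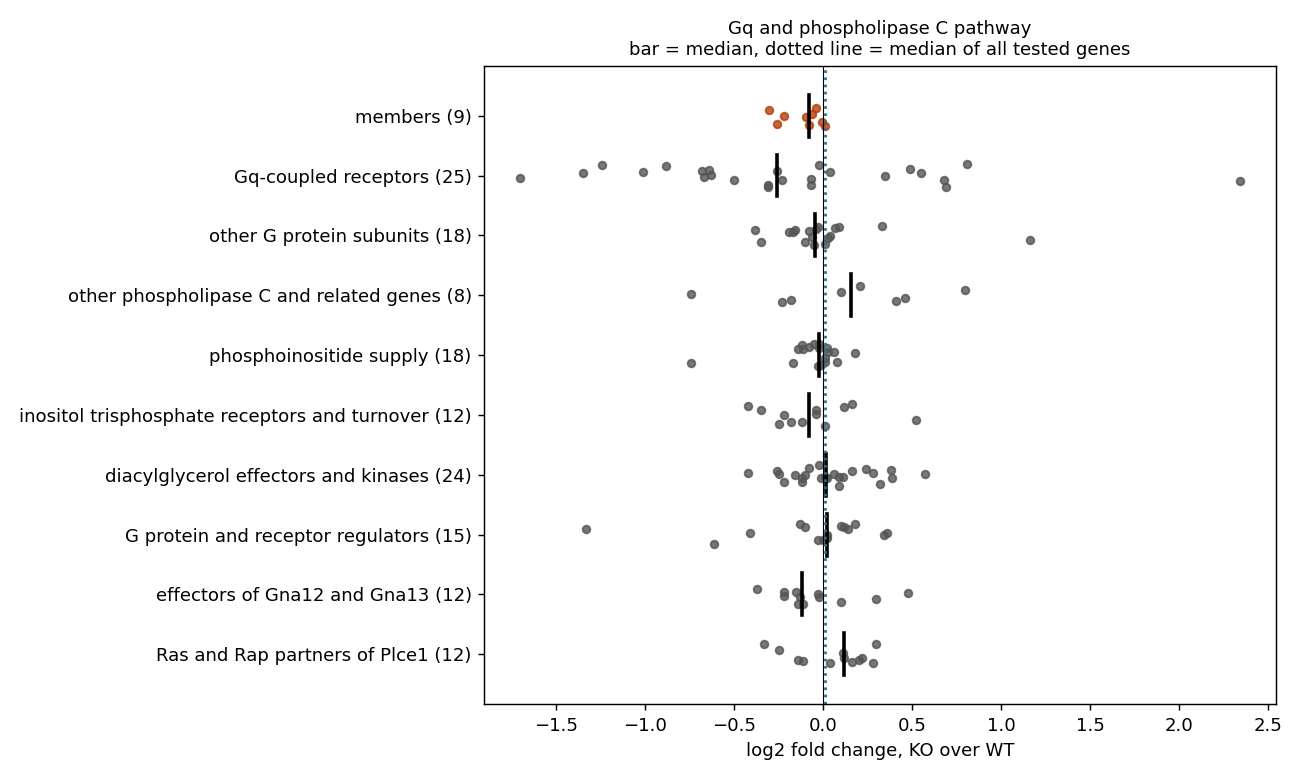
Log2 fold changes (KO over WT) of tested genes in the member set and in 9 pathway lists, 1 point per gene, with the median of each list as a bar and the number of genes in parentheses. Medians run from −0.26 for Gq-coupled receptors to 0.16 for other phospholipase C genes, and the members lie between −0.30 and 0.01.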

How the data were processed

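Messenger RNA was measured in 3 KO and 3 WT aortic libraries. The authors deposited raw read counts per gene, per the submitters' processing notes on GRCm38 with STAR 2.6.0c, Trimmomatic 0.36 and Subread 1.6.1, whose featureCounts is named. Which annotation and strand setting were used, and how multi-mapped reads were treated, was not given in the sources used here. Under R 4.3.3, edgeR 4.0.16 was run on the counts as deposited with its quasi-likelihood test (genotype as the only term, TMM, filterByExpr with a minimum count of 10 and a minimum total of 15, Benjamini-Hochberg over 14145 genes, threshold 0.05). DESeq2 1.42.0 and limma-voom (limma 3.58.1) were alternatives. All 3 tools were also run on simulated data as a check of the code, and no result here rests on its outcome. Total counts of 20048216 to 25521123 per library give Plcb1 in KO a counting error of 3.13%, with PCR copies left unmarked, so that it covers counting error only. Fold changes are KO over WT. SE is the fold change over the root of its F statistic. Exon lengths are from GENCODE M21, promoters from RefSeq.

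The members and the lists were chosen with earlier results of these data known. All members were named. For Plcb1 the 5 genes of nearest profile were named, and for each pathway list the genes that passed or, with none, the 2 of smallest p. Genes called by DESeq2 were among these. Further genes of the diacylglycerol, regulator and effector lists were named after values had been seen. Length classes and overlapping genes were examined after values had been seen. Of the regulators' list, 17 of 18 symbols matched a row. Of the 10 marker lists, the sums of smooth muscle, heart, pericyte and macrophage markers stand beside the results and the others in the closing section.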

Additional observations from a re-analysis of the deposited data

How the results depend on the processing

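The log2 fold change of Plcb1 stayed between −0.322 and −0.29 over 14 alternatives, and each of 126 alternative values of the 9 tested members differed from the value reported by less than 1 SD between libraries. Of all genes, edgeR called 1. The count was 204 with the DESeq2 test, 9 with no filter on low counts, 0 with the replicate block and, added after the data were seen, 0 without KO replicate 1 and WT replicate 3 together. With single libraries left out it was between 0 (without WT replicate 1) and 3 (without KO replicate 2). Pathway calls were 0 in edgeR and 6 with the DESeq2 test, and between 0 and 0 with single libraries left out. Same-numbered KO and WT libraries deviated together with correlations of 0.12, 0.12 and −0.052, and the series text does not say what its pairs share, so the numbers were not taken to pair them. Under the replicate block, the 9 members had no calls either. Among the members, Plcb2, with 1 to 5 counts per library, was too shallow for a comparison.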

Other observations

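Endothelial markers (7 genes) summed to 378, 353 and 615 CPM in KO replicates 1, 2 and 3, against 417, 335 and 311 CPM in WT replicates 1, 2 and 3. Adventitial fibroblast markers (6 genes) summed to 1030, 466 and 797 CPM in KO, against 707, 405 and 678 CPM in WT. In the same order, nerve markers (7 genes, Elavl4 at 0) summed to 28.2, 10.5 and 13.5 CPM in KO, against 13.8, 16.9 and 11.8 CPM in WT, and adipocyte markers (6 genes) to 150, 99.9 and 223 CPM in KO, against 192, 146 and 98.3 CPM in WT. Skeletal muscle markers (6 genes) summed to 9.59, 11.4 and 7.7 CPM in KO, against 8.76, 12.2 and 7.37 CPM in WT, and erythroid markers (5 genes) to 35.5, 31.7 and 25.6 CPM in KO, against 152, 20.3 and 76 CPM in WT. Posterior Hox genes (14 genes) summed to 8.87, 16.4 and 40.1 CPM in KO, against 38.1, 41.5 and 32.2 CPM in WT. Above 0 in log2 fold change, KO over WT, were 5 of 7 endothelial markers (median 0.3), 5 of 6 fibroblast markers (0.26) and 6 of 6 adipocyte markers (0.33). Of tested nerve and skeletal muscle markers, 2 of 4 each were above 0, and of erythroid markers 0 of 5 (median −1.47).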
